A study of Mus musculus with 2 samples.

Results

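Endothelial cells, which line blood and lymphatic vessels, were taken from single-cell RNA-seq profiles of the fracture callus. A barcode was called endothelial when it held at least 5 UMIs (unique molecular identifiers, 1 per captured transcript) from at least 3 of Cdh5, Kdr, Emcn, Egfl7, Esam, Tie1 and Robo4. It also had to hold less than 100 Col2a1 UMIs and less than 10 summed C1qa, C1qb and C1qc UMIs per 10000 UMIs, as limits on cartilage and macrophage genes. This rule found 270 of 21266 kept barcodes, namely 228 of 13460 in library MGJ (1.69%, exact 95% binomial interval 1.48 to 1.93%) and 42 of 7806 in library MGJ2 (0.538%, 0.388 to 0.727%). The 7 rule genes, Col2a1 and the C1q genes chose the cells, so the cells were chosen by these values, which are a description and support nothing.

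Both libraries were made from the callus of wild-type mice after a stabilised femoral fracture, with 10x Genomics droplets. The study collected callus from 12-week-old male C57BL/6J mice at 10 and 20 days post-fracture (dpf), 5 mice at each time. The labels of the libraries were the same and gave no day, so neither library was assigned to a time and no comparison of days was made. Mice cannot be told apart within a library and each library is 1 sample, so no test was made, and all intervals cover counting error only. The libraries shared 19 cell barcodes. Levels are given as CPM, the summed UMIs of a gene per 1000000 summed UMIs of a group of cells, with exact 95% Poisson intervals in brackets, and a ratio compares endothelial cells with all other kept barcodes of their library.

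A healing fracture first bridges the gap with cartilage, and vessels then grow into the callus as cartilage is replaced by bone. Endothelial cells respond to VEGF through receptor tyrosine kinases, lay down a basement membrane of type IV collagen and laminin, admit leukocytes through selectins and other adhesion molecules, and secrete factors that act on bone and blood cells. They differ along the vascular tree into arterial, capillary, venous, sinusoidal, sprouting and lymphatic cells, each with known marker genes.

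Based on the rule genes, endothelial cells held from 5 to 281 rule UMIs in MGJ (median 30.5) and from 5 to 173 in MGJ2 (median 45). All 7 rule genes were seen in 76 of 228 and 22 of 42 cells. Among all other barcodes, 93.6% and 96.7% held no UMI of any rule gene. Cdh5, the adherens junction cadherin of endothelium, was at 1087 CPM (1049 to 1126) in MGJ and 1643 CPM (1534 to 1759) in MGJ2. Cdh5 lies at chr8:104101625-104144511 on the plus strand of GRCm38 (GENCODE M21). Kdr, the main VEGF receptor, was at 259 CPM (241 to 279) and 437 CPM (381 to 498). Emcn, the sialoglycoprotein endomucin, was at 793 CPM (761 to 827) and 785 CPM (710 to 866), and Egfl7, a secreted endothelial protein, at 694 CPM (664 to 726) and 399 CPM (346 to 458). The cells held a median of 8460.5 UMIs in MGJ and 8786 in MGJ2, against 5646 and 5106.5 in all other barcodes. Their median mitochondrial share was 6.13% and 6.15%, against 2.84% and 3.02%, and its part in the values below was not tested.

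**Figure D1:**
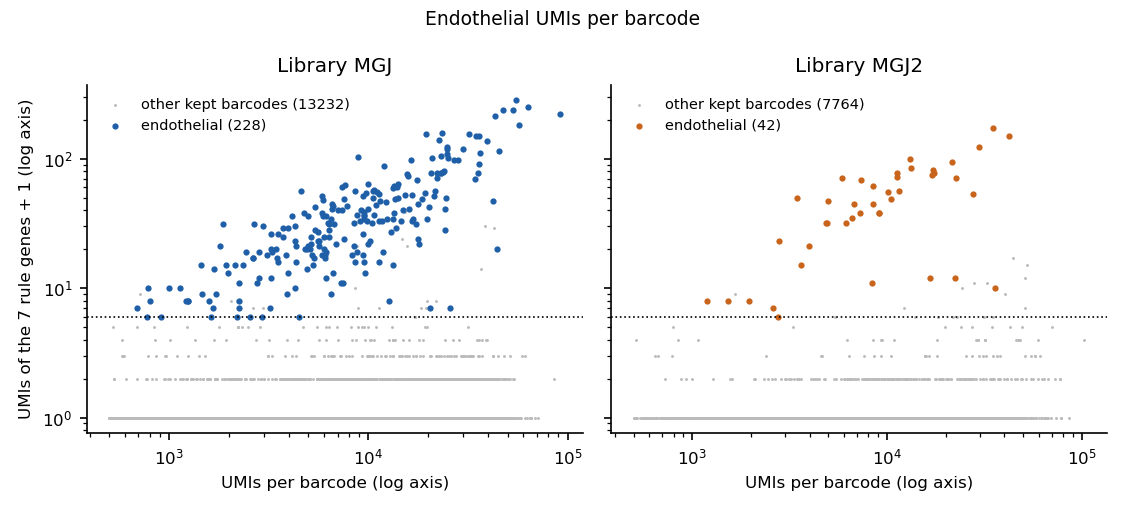
Each point is 1 kept barcode, with its total UMIs on the x axis and its UMIs of the 7 rule genes plus 1 on the y axis, both on log axes; coloured points are endothelial cells and the dotted line marks 5 rule UMIs. The 228 and 42 endothelial cells lie above a floor of barcodes without rule UMIs, and 4 cells of MGJ and 3 of MGJ2 held under 1 rule UMI per 1000 UMIs.

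Cells with 5 to 7 rule UMIs numbered 20 in MGJ and 5 in MGJ2, and their summed level of 23 endothelial genes that the rule did not use was 3841 CPM and 4783 CPM. Barcodes just outside, with 3 or 4 rule UMIs from at least 2 genes, numbered 27 and 12 and stood at 2462 CPM and 904 CPM. Cells with 8 or more rule UMIs stood at 9726 CPM and 11128 CPM.

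The regulatory sequence of genes that define these cells is shown for 4 of them, to give the letters that an ETS factor such as ERG or FLI1 can bind. The windows are the 250 bases before a RefSeq transcription start in GRCm38.p6, on the gene's strand and from 5′ to 3′. Capitals mark AGGAAG or its reverse complement, and Kdr is shown as a window without it. The windows lie at chr2:26580833-26581082 (plus strand) for Egfl7, chr2:32646345-32646594 (plus strand) for Eng, chr3:137340828-137341077 (plus strand) for Emcn and chr5:75978456-75978705 (minus strand) for Kdr. By GENCODE M21, 27 bases of the Egfl7 window, 11 of the Emcn window, 3 of the Kdr window and 0 of the Eng window lie in an exon.
Egfl7: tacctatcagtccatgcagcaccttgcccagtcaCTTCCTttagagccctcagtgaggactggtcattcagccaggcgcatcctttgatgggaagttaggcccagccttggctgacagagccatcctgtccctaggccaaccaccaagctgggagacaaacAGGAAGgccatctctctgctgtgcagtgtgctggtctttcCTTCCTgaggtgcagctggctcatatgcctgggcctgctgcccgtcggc
Eng: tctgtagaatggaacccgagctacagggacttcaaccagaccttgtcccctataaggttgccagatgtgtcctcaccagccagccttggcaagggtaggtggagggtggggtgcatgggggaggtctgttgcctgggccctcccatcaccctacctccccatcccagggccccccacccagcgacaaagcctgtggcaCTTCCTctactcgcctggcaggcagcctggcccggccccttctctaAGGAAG
Emcn: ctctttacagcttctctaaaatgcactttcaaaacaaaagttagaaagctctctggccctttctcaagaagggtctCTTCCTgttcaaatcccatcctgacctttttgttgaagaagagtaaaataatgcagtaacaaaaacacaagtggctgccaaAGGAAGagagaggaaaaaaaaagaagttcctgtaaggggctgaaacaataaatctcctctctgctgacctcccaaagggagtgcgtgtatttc
Kdr: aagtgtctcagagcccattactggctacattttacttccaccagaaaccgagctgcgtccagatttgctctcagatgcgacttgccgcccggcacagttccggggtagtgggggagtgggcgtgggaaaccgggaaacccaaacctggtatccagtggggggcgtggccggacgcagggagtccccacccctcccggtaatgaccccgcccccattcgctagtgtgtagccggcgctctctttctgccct

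The motif was present 3 times in the Egfl7 window shown, 2 times before Eng and 2 times before Emcn. Egfl7 has 2 other starts in the table, at windows chr2:26583615-26583864 with 1 site and chr2:26586386-26586635 with 0, and the window with most sites is the one shown. Eng encodes endoglin, a co-receptor for BMP9 on endothelium. Of 30 rule and general endothelial genes, 17 had a window, and 12 of their 20 windows (60%) held AGGAAG on either strand, against 29.5% of all 32851 windows. Windows of genes at least 2 times higher in endothelial cells held it in 29.6% (MGJ) and 28.8% (MGJ2), and those of genes at least 10 times higher in 35.8% and 31.4%. The SOX letters ACAATG and the GATA letters AGATAA were each in 5% of the 20 windows, against 10.7% and 9.99% of all windows. Windows of all genes tested (at least 20 UMIs seen or expected in endothelial cells) held ACAATG in 6.06% (MGJ) and 6.36% (MGJ2). They held AGATAA in 5.46% and 5.05%, and AGGAAG in 28.5% and 29.8%. A match is a description of letters and not a binding site.

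Next, the label was checked with 23 endothelial genes that the rule did not use. All 23 were at least 2 times higher in endothelial cells of both libraries, where 21.6% of 9675 genes tested in MGJ and 25.7% of 4997 in MGJ2 were, and their median log2 ratio was 6.58 and 8.01 against 0.37 and 0.28 for all genes tested. The latter medians, 1.29 and 1.21 times on the linear scale, show that the typical gene stood above 1, so ratios between 1 and these values lose their direction when the profiles are scaled to the median gene. A cell had a UMI of a median of 17 of the 23 genes in MGJ and 17.5 in MGJ2, against 1 in all other barcodes. Only 3 and 4 cells held fewer than 5 of them. Because endothelial genes were used to choose the cells, correlated endothelial genes had to be high, and these values check the label without testing it.

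Among these genes, Pecam1, which encodes the junction protein CD31, was at 908 CPM (874 to 944) and 1035 CPM (949 to 1127), with ratios of 91.9 and 35.8. Cldn5, the tight junction claudin of endothelium, was at 312 CPM (292 to 333) and 649 CPM (581 to 723), against 1.02 and 0.332 CPM in all other barcodes. Plvap, which forms the diaphragms of fenestrae and caveolae, was at 835 CPM (802 to 870) and 659 CPM (591 to 734), with ratios of 507 and 1418. Thinned to 2000 UMIs a cell, Pecam1 was seen in 78.3% of 207 endothelial cells in MGJ and 79.5% of 39 in MGJ2, and in 1.34% and 1.73% of neutrophils, which give the background of free RNA and of this gene in leukocytes. Unthinned shares of endothelial cells with Pecam1 were 93.9% and 85.7%, at a median depth of 8460.5 and 8786 UMIs, against 2038 and 2933 UMIs in neutrophils.

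**Figure D2:**
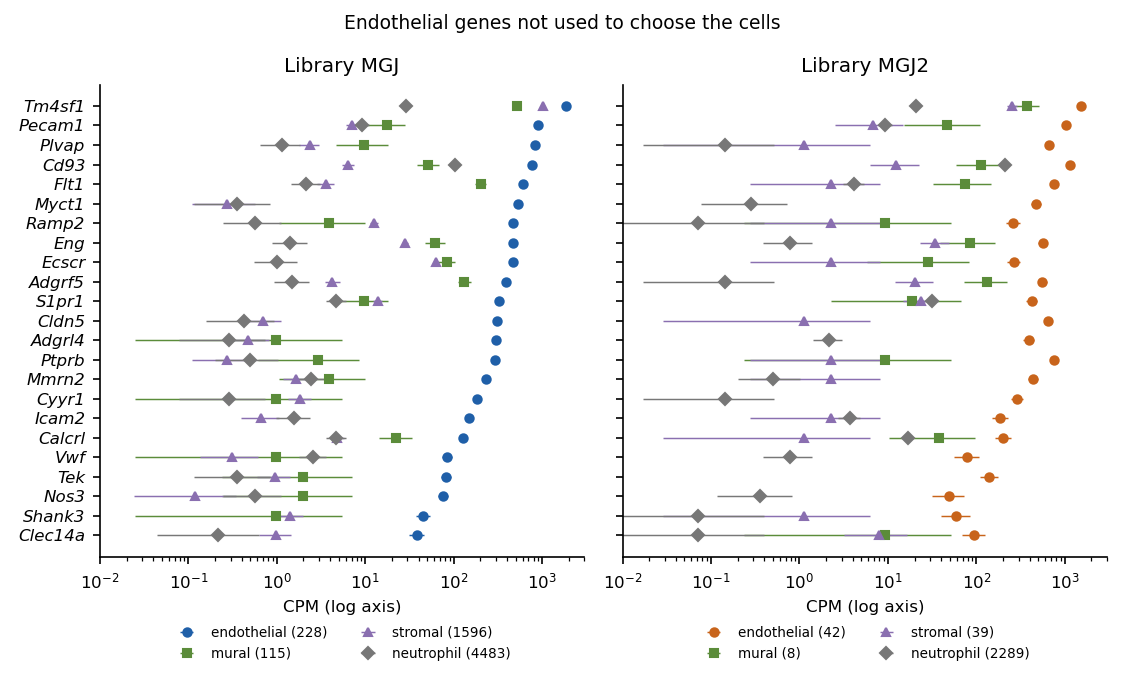
Level in CPM on a log axis of the 23 endothelial genes the rule did not use, in endothelial, mural, stromal and neutrophil barcodes of each library, with exact 95% Poisson intervals; groups without a UMI are not drawn and numbers of barcodes are in brackets. Endothelial cells lie to the right of the other groups for every gene.

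By the fixed rule for the strongest ratios, the highest 15 genes in MGJ opened with Gpihbp1 (ratio 917, 673 to 1282), which carries lipoprotein lipase across the capillary wall. Next came Fam167b (762), Sox17 (743), Myct1 (702), Ptprb (589), Aplnr (552), Pcdh12 (526), Plvap (507), Ackr1 (476), Adgrl4 (474), Tmem252 (438), AU021092 (437), Podxl (379), Sox7 (376) and Rassf9 (334). The highest 10 in MGJ2 were Sox7 (5391, 1450 to 45191), Ptprb (4586), Gpihbp1 (2915), Stc1 (2678), Cldn5 (1955), Sox18 (1822), Cavin2 (1777), Sema3g (1777), Cyyr1 (1742) and Aplnr (1718). Ptprb encodes VE-PTP, the phosphatase that restrains TIE2, and Aplnr the receptor of apelin. These ratios rest on few UMIs in the other barcodes, 42 for Gpihbp1 in MGJ and 2 for Sox7 in MGJ2.

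At the other end, 7 of the 10 lowest genes in MGJ had no UMI in endothelial cells: C3ar1, Foxa3, Lbhd2, Slurp1, Prss34, Gm41724 and Il17b. With a floor of 3 UMIs over the endothelial cells, their levels were at most 0.0241 (Il17b) to 0.0558 (Prss34) times those of all other barcodes. Arg1 (0.00770), Scrg1 (0.00919) and Matn1 (0.0101), the latter a cartilage matrilin, completed the 10. The lowest 5 in MGJ2 were Col9a1, Il1f9, Col9a2, Jchain and Apoc2, all without a UMI and at most 0.0252 (Jchain) to 0.0558 (Apoc2) times the others. Genes at most 0.5 times the others made up 14.8% of genes tested in MGJ and 14.7% in MGJ2. In MGJ, 2090 genes were higher and 1432 lower (59.3% higher), which became 1309 and 1810 (42.0%) when the profiles were scaled by the median of ratios. In MGJ2, 1286 were higher and 736 lower (63.6%), which became 1057 and 900 (54.0%).

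Transcription factors of endothelium were then examined. Of 20 listed, 14 of 19 tested in MGJ and 13 of 18 tested in MGJ2 were at least 2 times higher and none was at most 0.5 times, with median log2 ratios of 3.25 and 1.47. The SOX-F factors, which direct vessel identity, were under 1 CPM in all other barcodes. Sox17 was at 113 CPM (101 to 127) and 140 CPM (109 to 176) against 0.153 and 0.083 CPM, and Sox18 at 130 CPM (117 to 144) and 242 CPM (201 to 289) against 0.504 and 0.133 CPM. Epas1, which encodes the hypoxia-inducible factor HIF-2α, was at 260 CPM (242 to 280) in MGJ and 954 CPM (871 to 1043) in MGJ2. Erg, the ETS factor, was about 10 times higher than in other barcodes in both (10.1 and 9.49), whereas Fli1, which leukocytes also use, had ratios of 6.97 and 1.24.

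Receptors of the VEGF and angiopoietin systems were next set beside their ligands. Of 17 listed genes, 9 of 12 tested were higher and 2 lower in MGJ, and 9 of 10 higher and 1 lower in MGJ2 (median log2 ratios 2.08 and 4.67). Flt1, the decoy-like VEGF receptor 1, was at 601 CPM (573 to 630) and 750 CPM (676 to 829). The co-receptor Nrp1 was at 155 CPM (140 to 170) and 376 CPM (324 to 433), and Tek, the TIE2 receptor, at 81.4 CPM (71.2 to 92.6) and 140 CPM (109 to 176). The ligand Pgf, which binds FLT1, was at 297 CPM (277 to 318) and 155 CPM (123 to 194), with ratios of 28.9 and 24.2. Angpt2, the angiopoietin released by endothelium, was at 145 CPM (131 to 160) and 74.8 CPM (52.9 to 103). Vegfa itself was at 34.1 CPM (27.6 to 41.7) and 84.6 CPM (61.2 to 114), against 249 and 248 CPM in all other barcodes, that is 0.137 and 0.341 times their level. Without the cells of mixed markers described below Vegfa was at 25.9 and 28.0 CPM, or 0.104 and 0.113 times, and 1 cell held 30.2% of its UMIs in MGJ2. Angpt1, the TIE2 ligand of perivascular cells, had 8 and 2 UMIs in all. The named receptors and Pgf thus stood above the other barcodes and Vegfa below them in both libraries.

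Notch genes gave 10 of 13 tested higher in MGJ and 9 of 12 in MGJ2, with 1 and 2 lower (median log2 ratios 3.24 and 3.71). Notch1, the receptor, was at 168 CPM (153 to 184) and 254 CPM (212 to 302), and Notch4, a receptor largely of endothelium, at 66.8 CPM (57.6 to 77.1) and 116 CPM (88.4 to 150). Dll4, the ligand of sprouting and arterial cells, was at 49.4 CPM (41.5 to 58.3) and 86.6 CPM (62.9 to 116), with ratios of 132 and 348. Jag1 was at 98.1 CPM (86.9 to 110) and 268 CPM (225 to 317). The targets Hes1 (121 and 323 CPM) and Hey1 (22.0 and 57.1 CPM) also stood above the other barcodes, with ratios of 4.72 and 10.6 for Hes1. Notch3, the receptor of mural cells, was at 45.1 and 181 CPM in all endothelial cells but had no UMI once cells with mural or leukocyte UMIs (cells of mixed markers) were left out. Notch3 is among the genes that chose those cells. Notch2 was at 0.205 and 0.128 times the level elsewhere.

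BMP and TGF-β receptors and targets were higher for 9 of 15 tested in MGJ and 9 of 12 in MGJ2, and lower for 3 and 1 (median log2 ratios 1.24 and 2.38). The receptor Acvrl1, which encodes ALK1, was at 70.4 CPM (60.9 to 80.9) and 120 CPM (91.8 to 154). Its partner Eng was at 468 CPM (444 to 494) and 563 CPM (499 to 632). The targets diverged, as Id1 (ratios 3.46 and 7.21) and Id3 (3.59 and 3.86) were above the other barcodes and Id2 (0.260 and 0.343) below.

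Ligands by which vessels act on bone and blood cells split by library: 10 of 23 tested were higher and 9 lower in MGJ, and 12 of 14 higher and 1 lower in MGJ2 (median log2 ratios 0.51 and 3.65). Kitl, the stem cell factor, was at 340 CPM (319 to 362) and 398 CPM (345 to 456), with ratios of 56.4 and 115. Pdgfb, which recruits pericytes, was at 340 CPM (319 to 362) and 232 CPM (192 to 278), with ratios of 37.8 and 10.6. Edn1, the vasoconstrictor endothelin-1, was at 91.7 CPM (80.9 to 104) and 80.7 CPM (57.9 to 109). Bmp4 was at 24.9 CPM (19.4 to 31.4) and 27.6 CPM (15.1 to 46.2). Noggin, the BMP antagonist encoded by Nog, had 1 UMI and none. Cxcl12, a chemokine that retains blood progenitors, was at 213 CPM (196 to 230) and 645 CPM (577 to 719), and 1 cell held 59.1% of its UMIs in MGJ2, where its level was 347 CPM without the cells of mixed markers described below. Tgfb2, Bmp6 and Igf1 stood at 0.198, 0.239 and 0.242 times the level of the others in MGJ, where Bmp6 was 1.72 times the level of stromal barcodes. In MGJ2 the direction was opposite. There Tgfb2, Bmp6 and Igf1 were at 57.1, 25.6 and 82.7 CPM, above all other barcodes and below stromal barcodes, and 5 cells held 95.2% of the Igf1 UMIs.

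Basement membrane genes were higher for 12 of 16 tested in MGJ and 15 of 15 in MGJ2, with 1 lower in MGJ (median log2 ratios 2.97 and 6.12). Col4a1 was at 3008 CPM (2944 to 3072) and 3399 CPM (3240 to 3563), with ratios of 62.0 and 251. Thinned to 2000 UMIs, 94.7% and 92.3% of endothelial cells held a Col4a1 UMI, against 0.953% and 0.270% of neutrophils. Neutrophils give only a background here, and shares of mural and stromal barcodes are not given. Its partner Col4a2 was at 1546 CPM (1500 to 1592) and 1702 CPM (1591 to 1820). The laminin chain Lama4 was at 283 CPM (264 to 304) and 213 CPM (174 to 257), and the nidogen Nid1 at 334 CPM (313 to 356) and 543 CPM (481 to 611). Sparc, a matrix protein that bone and cartilage cells also make, lay on different sides: it was at 4689 CPM (4610 to 4770) and 5036 CPM (4843 to 5235) in endothelial cells but had a ratio of 0.436 in MGJ and 2.99 in MGJ2. The level of Sparc elsewhere was 10751 CPM in MGJ and 1685 CPM in MGJ2, where 2913 and 125 barcodes were chondrocytes, and the part of those cells in the ratio was not tested.

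Junction genes were higher for 8 of 11 and 10 of 10 tested, with none lower. F11r, which encodes JAM-A, was at 207 CPM (190 to 224) and 211 CPM (173 to 254). Ocln and Cgn, tight junction genes of epithelium and of the blood-brain barrier, had no UMI in either library. Matrix proteases and inhibitors were higher for 6 and lower for 3 of 14 tested in MGJ, and higher for 10 and lower for 2 of 13 in MGJ2. Mmp9 was at 116 CPM in MGJ, 1.61 times the others, but at 5.52 CPM without cells of mixed markers, 0.077 times.

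**Figure D3:**
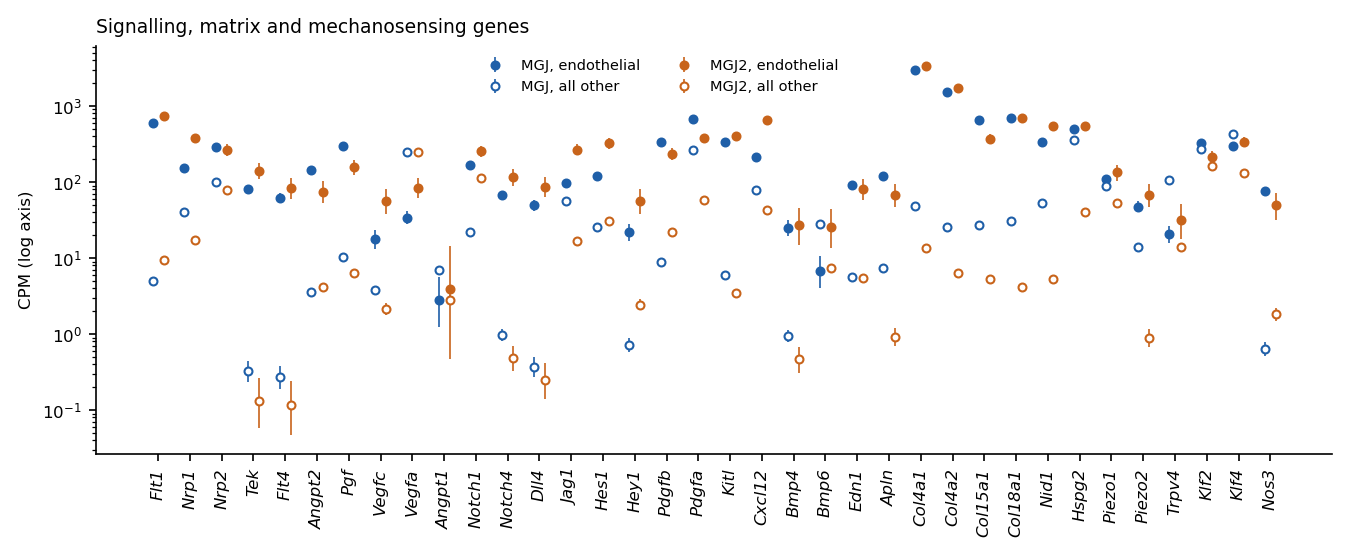
Level in CPM on a log axis of 36 genes of signalling, basement membrane and mechanosensing, with exact 95% Poisson intervals; filled points are endothelial cells and open points all other barcodes, blue for MGJ and orange for MGJ2. Vegfa, Angpt1, Bmp6, Trpv4 and Klf4 lie below the other barcodes of MGJ, while the VEGF receptors, Notch4, Kitl and type IV collagens lie far above.

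Leukocyte adhesion and inflammatory genes were higher for 9 of 11 tested in MGJ and 8 of 8 in MGJ2, with none lower. Selp, which encodes P-selectin, was at 738 CPM (706 to 770) in MGJ and 183 CPM (148 to 224) in MGJ2. Sele, the E-selectin of activated endothelium, was at 44.1 CPM (36.7 to 52.5) and had 3 UMIs in MGJ2. Ackr1, the chemokine receptor of venules, was at 222 CPM (205 to 240) and 27.6 CPM (15.1 to 46.2). Icam1 was at 422 CPM (399 to 447) and 419 CPM (365 to 479), and Vcam1 at 370 CPM (348 to 393) and 425 CPM (370 to 486). The summed levels of both selectins and Ackr1 were thus lower in MGJ2, by intervals that cover the counting of UMIs and not cells or mice. Selp was seen in 89 of 228 and 11 of 42 cells, Sele in 54 and 3 and Ackr1 in 51 and 4. In MGJ, 5 cells held 55.1% of the Ackr1 UMIs. Icam1 and Vcam1 overlapped in their intervals.

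The cytokine genes of this list also differed between the libraries. Csf3, the granulocyte colony-stimulating factor, was at 693 CPM (663 to 725) and 94.5 CPM (69.6 to 125), with ratios of 4.81 and 4.39. Cxcl1 was at 2917 CPM (2854 to 2981) and 268 CPM (225 to 317), and all other barcodes held 3232 and 95.5 CPM. Ccl2 was at 2125 CPM (2072 to 2180) and 205 CPM (167 to 248), with ratios of 2.08 and 3.51, but 0.815 against stromal barcodes of MGJ. Il6 was at 238 CPM (221 to 257) in MGJ and at 84.4 CPM without cells of mixed markers, against 93.8 CPM in all other barcodes. Without them Csf3 was at 806 and 52.5 CPM, Cxcl1 at 2013 and 175 CPM and Ccl2 at 1372 and 151 CPM. Of the Csf3 UMIs of MGJ2, 62.5% came from 1 cell.

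Mechanosensing and flow genes were higher for 7 and lower for 2 of 15 tested in MGJ, and higher for 11 of 13 in MGJ2 (median log2 ratios 0.62 and 2.18). Piezo1, the mechanosensitive channel the study followed, was at 109 CPM (96.9 to 122) and 134 CPM (104 to 170), with ratios of 1.22 (1.08 to 1.36) and 2.53 (1.96 to 3.21). In MGJ the ratio turned to 0.941 when the profiles were scaled to the median gene. Thinned to 2000 UMIs, 22.2% and 43.6% of endothelial cells held a Piezo1 UMI, against 3.60% and 4.38% of neutrophils. Neutrophils are the only group set beside these shares. They do not compare endothelial cells with chondrocyte, stromal or mural barcodes. Piezo2 was at 47.6 CPM (39.9 to 56.4) and 66.9 CPM (46.3 to 93.5), with ratios of 3.44 and 74.6. Trpv4 was at 20.6 CPM (15.7 to 26.6) in MGJ, 0.192 times the level elsewhere, but 1.22 times that of stromal barcodes. Klf2, a flow-induced factor, was at 328 CPM and 214 CPM with ratios of 1.20 and 1.33, the former 0.9285 when the profiles were scaled to the median gene. Klf2 also turned to 0.880 in MGJ2 when every barcode was weighted equally. Nos3, the endothelial nitric oxide synthase, was at 75.7 and 49.2 CPM with ratios of 118 and 26.9.

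Of further lists, with the same background shares, hypoxia and glycolysis genes were higher for 3 and lower for 4 of 12 tested in MGJ, and 1 and 1 of 8 in MGJ2. Mesenchymal genes were higher for 2 and lower for 6 of 13, and 6 and 4 of 10. Genes of S, G2 and M phases were neither for 14 of 14 in MGJ, and 1 higher and 2 lower of 8 in MGJ2. Mki67 was at 26.7 CPM (20.97 to 33.4) and 55.1 CPM (36.6 to 79.6), with ratios of 0.961 and 0.504. MHC and interferon genes were higher for 4 and lower for 4 of 14 in MGJ, and 1 and 3 of 10 in MGJ2. Cd74, the MHC class II invariant chain, was at 193 CPM and 1126 CPM, and at 70.6 and 77.0 CPM without cells of mixed markers.

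Some of the cells carried genes of other cell types. In MGJ, 31 cells held at least 5 UMIs from at least 3 mural genes, 13 held at least 2 UMIs of the leukocyte gene Ptprc and 2 held both, which left 186. In MGJ2 these numbers were 5, 4 and 0, which left 33. The summed level of 10 mural genes ranged from 0 to 16944 CPM per cell in MGJ (median 0) and from 0 to 39769 CPM in MGJ2 (median 108). Rgs5, a pericyte gene, was at 770 and 2674 CPM, and 4 cells held 99.9% of its UMIs in MGJ2. Without cells of mixed markers Rgs5 was at 37.0 and 3.50 CPM, and Pdgfrb, the defining pericyte receptor, had no UMI in either library, but such mural genes chose the cells left out, so their lower level there was set by that choice. All 10 neutrophil genes were detected in MGJ and 9 in MGJ2, at a summed 6418 and 16168 CPM against 25118 and 52738 CPM in all other barcodes. Their summed level per cell had a median of 353 and 384 CPM and a maximum of 233197 and 224135 CPM. S100a8 was at 2239 and 5931 CPM, or 937 and 245 CPM without cells of mixed markers. Of its UMIs, 1 cell held 25.3% in MGJ and 97.4% in MGJ2.

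Cells with skeletal genes were not among those left out. In MGJ, 122 of 228 cells held at least 3 UMIs of at least 2 stromal genes and 193 of at least 2 chondrocyte genes, with summed levels of up to 35739 and 34294 CPM in a cell against medians of 393 and 745 CPM. Col10a1, the collagen of hypertrophic cartilage, was at 252 CPM in MGJ and at 353 CPM without cells of mixed markers, and 1 cell held 67.9% of its UMIs. Of the UMIs of Ibsp, a bone matrix gene, 66.1% came from 1 cell. In MGJ2, 5 of 42 cells met each of these lists. At 100 or more stromal or chondrocyte UMIs per 10000, a limit chosen after the data were seen, 5 cells of MGJ and 2 of MGJ2 stood out, and without them 2123 and 1208 genes were higher and 1456 and 712 lower.

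Of 10 mural genes, 7 of 10 tested were higher and 1 lower in MGJ and 7 of 8 were higher in MGJ2 (median log2 ratios 2.25 and 5.52). Of the chondrocyte genes tested, 9 of 9 and 8 of 8 were lower, of leukocyte genes 9 of 9 in both, of macrophage genes 7 of 7 and 6 of 7, and of neutrophil genes 10 of 10 and 9 of 10. Stromal genes were lower for 10 of 10 in MGJ, and lower for 5 and higher for 2 of 7 in MGJ2. By Scrublet, a caller of doublets (barcodes that hold 2 cells), no barcode of MGJ and 223 of MGJ2 were called, 1 of them endothelial. The highest scores, taken at the expected doublet rate of 10.8% and 6.24%, held 53 (23.2%) and 11 (26.2%) of the endothelial cells.

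Levels of endothelial genes without the cells of mixed markers were also computed. Pecam1 was then at 1000 and 1485 CPM, Col4a1 at 3001 and 3407 CPM and Kitl at 351 and 420 CPM. The lipase gene Lpl was at 563 CPM in all endothelial cells of MGJ2 and at 35.01 CPM without them. Abcc9 and Kcnj8, channel genes that mark pericytes, were still at 119 and 31.5 CPM in MGJ2.

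Next, members were described along the vascular tree with lists of vessel types, after thinning each cell to 2000 UMIs and asking for at least 3 UMIs from at least 2 genes of a list. This left 207 cells in MGJ and 39 in MGJ2, with 21 and 3 shallower cells left out. By level, higher genes made up 10 of 11 arterial, 8 of 8 venous, 5 of 6 sinusoidal, 8 of 11 capillary, 13 of 15 sprouting and 6 of 7 lymphatic genes tested in MGJ. In MGJ2 they made up 11 of 11, 7 of 7, 4 of 4, 7 of 9, 10 of 13 and 1 of 1. Of all genes tested, 21.6% were higher in MGJ and 25.7% in MGJ2. Genes rare elsewhere are tested mainly when endothelial cells hold many UMIs of them, so these counts are a description and support nothing. Of 7 lymphatic genes listed, 1 was tested in MGJ2 and 3 had no UMI there. Capillary genes were seen in 75.8% (69.4 to 81.5%) and 71.8% (55.1 to 85.0%), sprouting genes in 59.4% (52.4 to 66.2%) and 59.0% (42.1 to 74.4%), and venous genes in 46.9% (39.9 to 53.9%) and 41.0% (25.6 to 57.9%). Arterial genes were seen in 19.8% (14.6 to 25.9%) and 35.9% (21.2 to 52.8%), sinusoidal genes in 7.73% (4.48 to 12.2%) and 28.2% (15 to 44.9%), and lymphatic genes in 6.28% (3.39 to 10.5%) and 0 of 39, which allows up to 9.03%. Over 20 other random draws of the thinning, the sinusoidal share ran from 5.31 to 10.1% in MGJ and from 20.5 to 35.9% in MGJ2, and the lymphatic share from 5.31 to 6.76% and from 0 to 5.13%. Unthinned, the same shares ran from 10.5 to 89.0% in MGJ and from 11.9 to 90.5% in MGJ2, so they depend on depth.

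In the thinning draw reported above, the sinusoidal intervals of the libraries did not overlap, and the others did. These intervals cover the counting of cells and not mice, so they are a description. Whether the sinusoidal intervals stay apart in the other draws, or with cells thinned further, was not tested. Without barcodes of the highest Scrublet scores, the lymphatic share in MGJ was 1.29%, and 0.645 to 1.94% over the 20 draws. The sinusoidal share was then 3.87%, and 1.29 to 7.74% over the draws, which overlaps the range with those barcodes. Stromal barcodes of MGJ, with a median of 15384 UMIs before thinning, held capillary genes in 25.8%, arterial genes in 9.15%, sprouting genes in 5.51% and venous genes in 0.202%. Neutrophils held sprouting genes in 17.4% in MGJ and 44.1% in MGJ2, and all other barcodes of MGJ2 in 36.2%. The neutrophil share of MGJ2 lies within the interval of its endothelial cells, so the sprouting list did not set endothelial cells apart there. Venous genes were in 0.303% of neutrophils of MGJ and in 0 of 1850 in MGJ2. Mural barcodes of MGJ held capillary genes in 34.9%, sprouting genes in 17.4%, arterial genes in 6.42% and venous genes in 0 of 109. The capillary, sprouting and arterial lists were thus also met by barcodes that are not endothelial, and the venous list rarely.

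**Figure D4:**
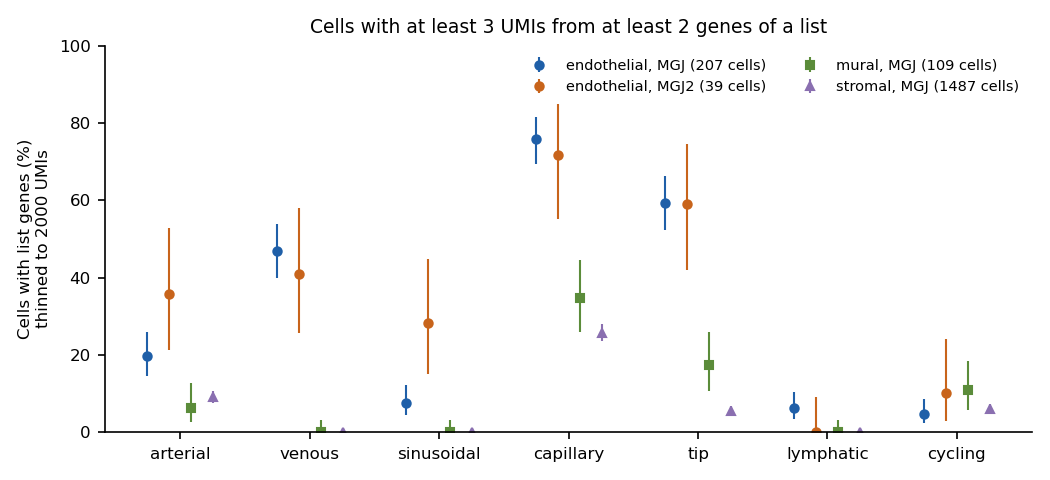
Share of cells, in percent and thinned to 2000 UMIs, with at least 3 UMIs from at least 2 genes of each list, for endothelial cells of both libraries and for mural and stromal barcodes of MGJ; bars are exact 95% binomial intervals. Venous, sinusoidal and lymphatic lists are at or near 0% in mural and stromal barcodes. Cycling genes were held by 10.3% of MGJ2 endothelial cells (4 of 39, 2.87 to 24.2%). Shares of all other barcodes (7.69%) and neutrophils (11.5%) of MGJ2, not drawn here, lie within that interval. The cycling list thus did not set endothelial cells apart there.

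The lists overlapped in the same cells. Unthinned, 122 cells of MGJ met both the arterial and the venous list, which was 84.1% of the 145 arterial and 66.7% of the 183 venous cells. The sinusoidal and lymphatic lists share Lyve1 and Flt4. Of the 24 lymphatic cells of MGJ, 23 (95.8%) also met the sinusoidal list, as did all 5 of MGJ2. Those 23 were 25.8% of the 89 sinusoidal cells of MGJ. Next, single genes were followed. Cells with at least 1 UMI of a gene (holders) were set beside the other endothelial cells of that library, after the cells of mixed markers were left out. These genes were chosen after their values were seen, holders tend to be deeper cells, and the ratios are a description without a test.

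Gja5, the arterial connexin 40, had 12 holders among 186 cells of MGJ. They held Gja4, another arterial connexin, at 70.4 times the level of the other cells (37.9 to 141), with 54 and 13 UMIs. Sema3g was 30.9 times higher (18.2 to 53.9), Cxcl12 9.27 times (7.52 to 11.4), Vwf 6.51 times (4.65 to 8.99) and Efnb2, the arterial ephrin ligand, 4.35 times (3.08 to 6.05). Vwf is also on the venous list. Of its other genes, no UMI of Nr2f2, Aplnr or Selp was found in the holders, against 145, 246 and 1421 in the others. The remaining venous genes are not given for these holders. Plvap was at 0.155 times (0.0866 to 0.257) and Emcn at 0.219 times (0.134 to 0.340). Gja5 lies at chr3:96904693-97077416 on the plus strand. In MGJ2, 5 of 33 cells held Gja5, with Sema3g 8.91 times higher (5.94 to 13.7), Gja4 8.02 times (3.52 to 20.5), Hey1 6.99 times (2.63 to 21.6) and Plvap at 0.152 times (0.0818 to 0.261).

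Ackr1 had 42 holders in MGJ. Selp was 24.1 times higher in them (20.3 to 28.7), Csf3 13.9 times (12.1 to 16.0), Il6 5.76 times (4.07 to 8.25), Sele 5.26 times (3.42 to 8.23), Vwf 4.23 times (3.14 to 5.73) and Cxcl1 3.25 times (3.05 to 3.47). Icam1 and Vcam1 were 3.07 times (2.65 to 3.56) and 3.32 times (2.83 to 3.91) higher. Gpihbp1 was at 0.135 times (0.0857 to 0.203), Cldn5 at 0.249 times (0.187 to 0.327) and Cxcl12 at 0.0916 times (0.0483 to 0.158). Summed over the holders, adhesion genes and the cytokines Csf3 and Il6 were thus high, while Gpihbp1, Cldn5 and Cxcl12 were low. Whether single holders carried these genes together was not tested. Of the Ackr1 UMIs of all 228 cells, 28.2% came from 1 cell, and MGJ2 had 4 holders.

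Esm1, which marks sprouting tip cells, had 40 holders in MGJ with a median of 10888.5 UMIs against 5919.5 in the others. Kcne3 was 9.33 times higher (4.33 to 23.0), Igfbp3 5.69 times (5.14 to 6.30), Cxcr4 4.17 times (3.39 to 5.16), Apln 2.84 times (2.21 to 3.67), Nid2 2.61 times (2.05 to 3.33) and Piezo2 2.79 times (1.83 to 4.29). Selp was at 0.0778 times (0.0592 to 0.101) and Il6 at 0.0957 times (0.0406 to 0.194). The 5 holders of MGJ2 held Pgf at 14.1 times (7.20 to 30.03), Apln at 9.67 times (3.96 to 26.9), Igfbp3 at 8.85 times (7.24 to 10.9) and Cxcr4 at 6.11 times (4.41 to 8.55) the level of the others.

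Ccl21a, the chemokine of lymphatic vessels, had 15 holders in MGJ and none in MGJ2. Ccl21a lies at chr4:42772860-42773993 on the minus strand. It was at 1049 CPM (1011 to 1087) in the whole group, where 37.7% of its UMIs came from 1 cell and 83.1% from 5 cells. Holders held Pdpn 84.6 times higher (39.5 to 216), Lyve1 42.0 times (28.8 to 62.9), Mrc1 42.4 times (12.6 to 223), Prox1, the master regulator of lymphatic identity, 26.3 times (11.9 to 65.8) and Flt4, the VEGF-C receptor, 9.66 times (6.82 to 13.8). All 189 Mmrn1 UMIs and all 35 Reln UMIs were in the holders. Fabp4 was at 0.0560 times (0.0434 to 0.0713), Flt1 at 0.0857 times (0.0488 to 0.140) and Vwf at 0 of 191 UMIs. Of the 15, 11 (73.3%) were among the highest Scrublet scores of the library, against 12.3% of the other 171 cells, and what that score reflects in them was not tested. Because near-identical copies of Ccl21a exist in the mouse genome, its count is uncertain.

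**Figure D5:**
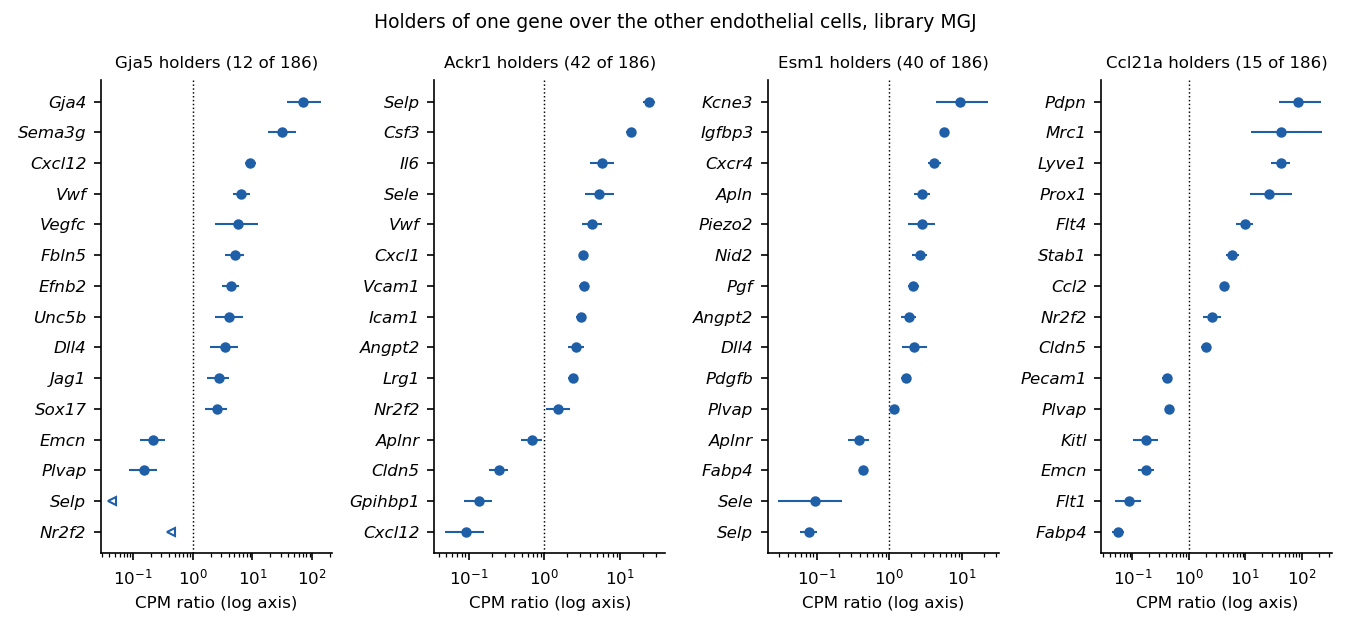
Ratio of summed CPM, on a log axis, of holders of Gja5, Ackr1, Esm1 or Ccl21a over the other endothelial cells of MGJ without cells of mixed markers; bars are exact 95% intervals, open triangles mark the upper limit where holders had no UMI, and the dotted line marks 1. Genes lower in the holders stand at the bottom of each panel and genes higher in them at the top, from Gja4 at 70.4 to Selp without a UMI in the panel of Gja5.

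Gpr182, a receptor of sinusoidal and lymphatic endothelium, had 8 holders among 33 cells of MGJ2. Stab2, the scavenger receptor of sinusoids, was 27.4 times higher in them (5.84 to 257), with 10 and 2 UMIs, and all 6 Dnase1l3 UMIs were theirs. Mrc1 was 18.3 times higher (7.07 to 55.6), Stab1 4.29 times (2.69 to 6.78), Abcc9 4.33 times (2.05 to 8.98) and Fabp4 3.46 times (3.10 to 3.86). Cxcl12 and Igfbp3 were at 0.0559 times (0.00140 to 0.319) and 0.0663 times (0.0242 to 0.145). In MGJ the 11 holders of Gpr182 held Lyve1 5.14 times (3.84 to 6.83), Pdpn 10.4 times (6.85 to 15.7) and Ccl21a 5.22 times (4.82 to 5.65) the level of the others, and Stab2 had 2 UMIs in all 228 cells. These UMIs came from few cells, as 3 of the 8 holders in MGJ2 had Stab2 and 3 of the 11 in MGJ had Ccl21a.

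Cd300lg, a capillary gene, had 62 holders in MGJ and 14 in MGJ2. Gpihbp1 was 2.74 times (2.27 to 3.31) and 6.22 times (3.68 to 11.1) higher in them, and Lpl 24.7 times (6.40 to 211) in MGJ with 39 and 2 UMIs. Piezo2 was 2.04 times (1.34 to 3.14) and 16.4 times (4.04 to 144) higher, the latter with 22 and 2 UMIs. Mki67 had 12 holders in MGJ, with Tpx2 49.5 times (12.04 to 437) and Top2a 8.61 times (4.75 to 16.0) higher, Lyve1 9.73 times (7.41 to 12.9) in 5 of the 12, and Fabp4 at 0.246 times (0.221 to 0.273).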

How the data were processed

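The authors made and deposited 1 matrix of UMI counts per library, 32285 genes by barcode, with 14295 barcodes and 135304426 UMIs in MGJ and 8009 barcodes and 61130834 UMIs in MGJ2. The deposited counts come from Cell Ranger 4.0.0 per the file headers, and GRCm38 and Seurat are named in the submitters' processing notes. No deposited file gave cell types. Barcodes with under 200 genes (371 and 70) or over 20% mitochondrial UMIs (464 and 133) were left out.

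Cells, gene lists and parameters were chosen with earlier results of these data known. Both libraries were left in no group because the labels give no day. Counts were summed over cells. A gene was tested for size, without a p-value, when at least 20 UMIs were seen or expected in endothelial cells, and called higher at a ratio of at least 2 or lower at a ratio of at most 0.5. A gene rare elsewhere passes that minimum mainly by its counts in endothelial cells. Counts of higher genes in lists are thus a description. Intervals were exact at 95% (Poisson for levels, conditional binomial for ratios, Clopper-Pearson for shares). A gene without a UMI was given the floor of 3 counts over the summed cells. UMIs are not fully independent molecules of the tissue, so intervals and floors cover counting error only. Among other barcodes, mural ones held at least 5 UMIs from at least 3 of Rgs5, Kcnj8, Abcc9, Notch3, Higd1b and Myh11, stromal ones held at least 50 Col1a1 and Col1a2 UMIs per 10000 and neutrophils at least 100 S100a8 and S100a9 UMIs per 10000. The text names the 15 highest and 10 lowest ratios in MGJ and the 10 highest and 5 lowest in MGJ2 among genes with at least 50 UMIs seen or expected (for the highest, a UMI in at least 20% of cells), list genes by level, and Piezo1, Piezo2 and Trpv4. Genes named for their concentration in few cells, for levels without mixed cells or beside a single gene were chosen after their values were seen, as were the genes used to split the cells, the alternatives without mixed cells, without cells high in stromal or chondrocyte genes and without the highest Scrublet scores, and the repeated draws of the thinning. Gene positions were taken from GENCODE M21 (32235 of 32285 identifiers, 99.8%) and promoter sequence from RefSeq (GRCm38.p6). Calculations used Python 3.11.15, numpy 2.4.6, scipy 1.17.1, pandas 2.3.3, scanpy 1.11.5 and matplotlib 3.10.9, and the ratio script was tested on simulated data.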

Additional observations from a re-analysis of the deposited data

Results flagged for a closer look

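Some barcodes with endothelial UMIs lay outside the cells described. In MGJ, 9 barcodes that met the marker rule had been removed by the limits on genes and mitochondrial UMIs, and in MGJ2 there were 5. A further 9 barcodes of MGJ held enough endothelial UMIs but exceeded a limit on another cell type, 6 of them for Col2a1 and 3 for C1q genes. They entered no comparison, and there were no control samples to set them against.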

How the results depend on the processing

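No paired analysis was possible because each library is 1 sample and the result comes from no test. Of 320 alternative values of the comparisons, 272 stayed within their limits, 48 moved and none reversed. Of 1522 alternative ratios of named genes, 1168 stayed, 334 moved and 20 reversed. In MGJ these were Piezo1 (0.941) and Klf2 (0.9285) under median-of-ratios scaling, Il6 (0.900) and Mmp9 (0.077) without cells of mixed markers, Cxcl1 (1.05) and Mmp9 (0.399) with every barcode weighted equally, and Bmp6 (1.72), Ccl2 (0.815), S100a8 (1.89) and Trpv4 (1.22) against stromal barcodes. In MGJ2 they were Klf2 with at least 3 UMIs from 2 rule genes (0.790) and with every barcode weighted equally (0.880), and, against stromal barcodes, Bmp6 (0.9815), Id3 (0.872), Igf1 (0.593), Klf2 (0.704), Mki67 (9.72), S100a8 (3.05), Sparc (0.347) and Tgfb2 (0.142). The causes were not tested, except that other cell limits and UMI minimums by construction change how many cells or genes are counted.

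The share of endothelial cells in MGJ was 1.96% with at least 3 UMIs from 2 rule genes, 1.47% with at least 10 UMIs from 4, 1.44% with at most 10% mitochondrial UMIs, 1.38% without cells of mixed markers and 1.46% without the highest Scrublet scores, and in MGJ2 it was 0.743% with at least 3 UMIs from 2 rule genes. That setting gave 42% of cells with sprouting genes in MGJ2, and at least 10 UMIs from 4 genes gave 4.17% with sinusoidal genes in MGJ. Without the highest Scrublet scores, shares in MGJ were 3.87% (sinusoidal), 82.6% (capillary), 67.1% (sprouting) and 1.29% (lymphatic). Higher genes in MGJ numbered 1309 under median-of-ratios scaling. With at least 100 UMIs, higher and lower genes numbered 1038 and 680 in MGJ and 274 and 220 in MGJ2, and with at least 1 UMI 4289 and 3193 in MGJ and 4554 and 2310 in MGJ2.

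Thinned to 1000 UMIs, shares in MGJ were 9.46% (arterial), 29.7% (venous), 2.25% (sinusoidal), 56.8% (capillary), 35.6% (sprouting) and 1.80% (cycling), and in MGJ2 16.7% (arterial), 19.1% (venous), 9.52% (sinusoidal) and 26.2% (sprouting). Without thinning they were 63.6% (arterial), 80.3% (venous), 39.0% (sinusoidal), 89.0% (capillary), 83.8% (sprouting), 10.5% (lymphatic) and 24.6% (cycling) in MGJ, and 61.9%, 81.0%, 64.3%, 90.5%, 85.7%, 11.9% and 26.2% in MGJ2. Asking for 2 UMIs of a list gave 33.8% (arterial) and 67.6% (sprouting) in MGJ. Leaving out Scrublet calls was not run in MGJ, which had none. The venous share in MGJ was 39.1% in the lowest of 20 other draws of the thinning. Depth and the small number of cells, 42 in MGJ2, limit the shares of vessel types.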
